A study of Mus musculus with 2 samples.

Results

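Cluster 8 of the colon immune cells held the regulatory T cells (Treg cells) of this study, 247 of 6886 cells. Its members were the cells to which the deposited metadata give cluster number 8: 133 of the 3443 cells of the 5XFAD library and 114 of the 3443 cells of the wild-type (WT) library. The series profiled live CD45+ cells, that is leukocytes, sorted from the colon of female mice aged 9 months after dissociation with a lamina propria kit, with 10x 3′ single-cell RNA-seq. 5XFAD mice carry human transgenes for the amyloid precursor protein and presenilin with familial Alzheimer disease mutations, driven in neurons by a Thy1 promoter, and the controls were their WT littermates without the transgenes. Each genotype is 1 library made from 3 pooled mice, so no cell can be traced to a mouse, and every comparison of 5XFAD with WT below compares 2 libraries. There is no replicate check and no test between genotypes: the 95% intervals cover counting error only. Cluster 8 was set against the other T lineage clusters, numbered 10, 11, 13 and 14, which held 226, 195, 125 and 121 cells.

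Regulatory T cells are CD4+ T cells that restrain other lymphocytes. Their identity rests on the transcription factor Foxp3, and they act through inhibitory receptors such as CTLA-4, through capture of interleukin 2 and through cytokines such as interleukin 10. In the colon they are commonly divided into cells induced by the microbiota, which carry c-Maf (Maf), and cells that carry Helios (Ikzf2) and GATA3, respond to interleukin 33 through its receptor ST2 (Il1rl1) and make the epithelial growth factor amphiregulin (Areg).

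The label was checked against the marker genes, and the 6 that define it were highest here. UMIs, the molecules counted in each cell, were summed over the cells of a cluster in each library and divided by all UMIs of those cells, in the usual CPM unit. Against all other cells of both libraries together, the 10 genes with the highest fold in cluster 8 were Foxp3, Penk, Il10, Tnfrsf4, Neb, Izumo1r, Tox2, Lrrc32, Ctla4 and Ttn. These genes come from the cells that were clustered, so this is a description and not a test. Foxp3 (GRCm38 chromosome X, 7573644 to 7595245) was at 363 CPM (5XFAD) and 231 CPM (WT) in cluster 8, and at 2.83 and 9.81 CPM in cluster 10, the next highest of all clusters in both libraries. Ctla4, the inhibitory receptor that takes CD80 and CD86 from antigen-presenting cells, was at 2161 CPM (5XFAD) and 1297 CPM (WT), and Tnfrsf4, the costimulatory receptor OX40, at 1739 CPM (5XFAD) and 1196 CPM (WT). Tnfrsf9, the receptor 4-1BB, was at 865 CPM (5XFAD) and 625 CPM (WT), Il10 at 401 CPM (5XFAD) and 317 CPM (WT), and Izumo1r, the folate receptor 4, at 193 CPM (5XFAD) and 199 CPM (WT). All 6 of these genes were highest in cluster 8 among all clusters in both libraries, as was Tnfrsf18 (GITR). Markers shared with other lymphocytes were not: Ikzf2 ranked 2 behind cluster 11, and Il2ra, the interleukin 2 receptor alpha chain, ranked 5 in both libraries.

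**Figure D1:**
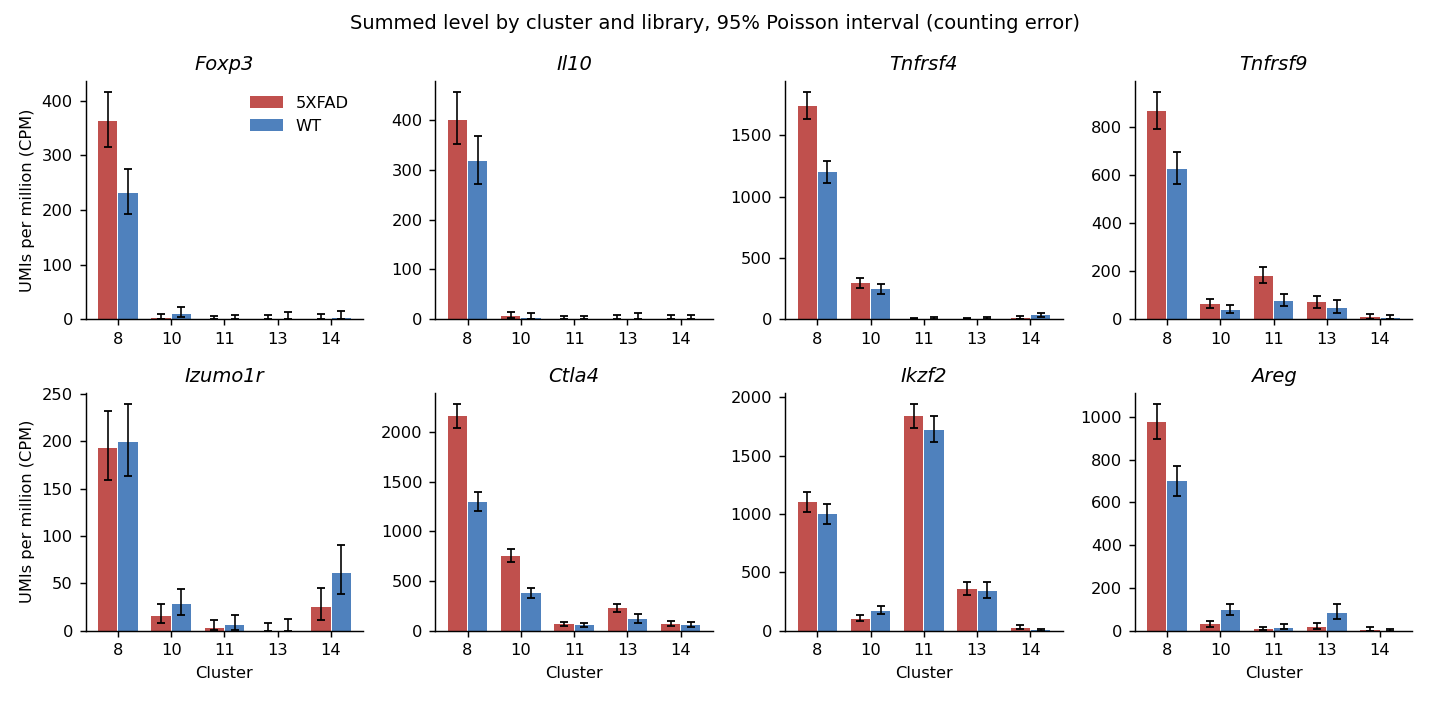
Bars give the summed level in CPM (vertical axis, from 0) of 8 genes in clusters 8, 10, 11, 13 and 14 (horizontal axis), in 5XFAD (red) and WT (blue); error bars are 95% Poisson intervals. Foxp3, Il10, Tnfrsf4, Tnfrsf9, Izumo1r, Ctla4 and Areg are highest in cluster 8, while Ikzf2 is higher in cluster 11.

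Not every cell of cluster 8 had a UMI of these genes, and the depth per cell sets that share. Median UMIs per cell were 4201 in 5XFAD and 4588.5 in WT, below the medians of 5551 to 6571.5 in clusters 10, 11, 13 and 14. Cells were therefore thinned to 3000 UMIs each, and 11 of 133 and 12 of 114 cluster 8 cells were too shallow and dropped out. A Foxp3 UMI was then found in 60.7% (51.4 to 69.4) of the 5XFAD cells and 43.1% (33.4 to 53.3) of the WT cells (unthinned 69.2% and 53.5%). Among B cells of clusters 0 to 5, which should lack Foxp3, the thinned shares were 0.043% (0.00109 to 0.239) and 0.0815% (0.00987 to 0.294), at unthinned median depths of 5086.5 and 4783.5 UMIs. Ctla4 was seen in 92.6% (86.5 to 96.6) and 84.3% (75.8 to 90.8) of thinned cluster 8 cells (unthinned 93.2% and 86.8%). Il10 was seen in fewer, 32.0% (23.8 to 41.0) and 25.5% (17.4 to 35.1) (unthinned 33.1% and 31.6%), although its summed level was like that of Foxp3. Before thinning, its 235 UMIs in 5XFAD and 177 in WT lay in 44 and 36 cells. The 213 and 129 Foxp3 UMIs lay in 92 and 61 cells. The 5XFAD cell with the most Il10 held 42 of the 235 UMIs. In the B cells the thinned shares were 0.602% (0.329 to 1.01) and 0.53% (0.282 to 0.904) for Ctla4 and 0.043% (0.00109 to 0.239) and 0.204% (0.0662 to 0.475) for Il10.

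Summed markers of B cells, plasma cells and natural killer cells were higher in the WT cells of cluster 8 than in the 5XFAD cells, and their part in the ratios between the libraries was not tested. Cd8a had 0 UMIs in both, where the floor of 3 counts is 5.12 CPM in 5XFAD and 5.37 CPM in WT. The 7 gamma delta T cell genes summed to 3 and 8 UMIs, and the 8 granulocyte and mast cell genes to 0 in both. The 10 genes of group 2 innate lymphoid cells, which include Gata3, Il1rl1 and Areg, summed to 1818 CPM in 5XFAD and 1578 CPM in WT, with Il13 at 0 in both. The 13 B cell genes summed to 638 CPM in 5XFAD, with Pax5 at 0, and to 1431 CPM in WT, with none at 0. They were also higher in WT in each of the 4 other T lineage clusters. In cluster 10 they summed to 349 CPM (5XFAD) and 1370 CPM (WT), and in cluster 11 to 615 and 1319 CPM. In cluster 13 they summed to 371 and 991 CPM, and in cluster 14 to 719 and 1802 CPM. Plasma cell and natural killer genes were not higher in WT in all 4. Cells with at least 2 UMIs of Cd79a, Cd79b and Ms4a1 together numbered 1 of 133 in 5XFAD and 7 of 114 in WT, and the 7 had a median of 7229 UMIs. The 8 plasma cell genes summed to 338 and 1265 CPM. The 9 natural killer cell genes summed to 6.82 and 152 CPM, and 74 of the 85 WT UMIs were Gzma from 3 cells. Macrophage and monocyte genes summed to 32 and 9 UMIs. Doublets were not called again, and ratios without the cells that hold at least 2 B cell marker UMIs stand in the closing section.

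Cluster 8 made up nearly the same part of the T lineage in both libraries. It held 3.86% (3.24 to 4.56) of all 5XFAD cells and 3.31% (2.74 to 3.96) of all WT cells, a log2 ratio of 0.22 (-0.15 to 0.60) whose interval holds 0. Of the cells in clusters 8, 10, 11, 13 and 14 it made up 26.7% in 5XFAD and 27.5% in WT, a log2 ratio of -0.04 (-0.42 to 0.33). The cells were sorted and both libraries hold 3443 cells, so these are relative amounts.

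Set against the other T lineage clusters, cluster 8 stood out most by Il10 and Foxp3, followed by Ttn, Neb, Il1rl1, Penk, Dgat2 and Areg. Of 2545 genes with at least 50 CPM in cluster 8 in both libraries, 58 (2.28%) were at least 2-fold above each of clusters 10, 11, 13 and 14 in both libraries. For a gene below 3 UMIs in a comparison cluster the level of 3 UMIs was used there, so many of these ratios depend on the size of the clusters. The 20 genes named are those with the largest ratio in the library where it was smaller. Il10 led them, at 53.9 times the highest of the 4 clusters in 5XFAD and 31.2 times in WT. It had 4 and 2 UMIs in cluster 10 and none in clusters 11, 13 and 14. Foxp3 followed at 48.8 and 22.8 times. Lrrc32, which encodes GARP, the docking receptor for latent TGF-beta, was at 66.5 CPM (5XFAD) and 59.1 CPM (WT) and at no more than 1.90 CPM in any of the 4.

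Areg and Il1rl1 ranked among the 8 highest of the 20. Both are also on the marker list of group 2 innate lymphoid cells, which lie outside these T lineage clusters. Il1rl1 had 401 UMIs in cluster 8 and 410 in all other cells of both libraries together. The levels of Areg and Il1rl1 in innate lymphoid cells are not given here. Areg (GRCm38 chromosome 5, 91139599 to 91148432) was at 977 CPM (5XFAD) and 699 CPM (WT), 31.4 and 7.24 times the highest of the 4 clusters. Il1rl1, the interleukin 33 receptor, was at 341 CPM (5XFAD) and 360.0 CPM (WT), while cluster 10 was at 11.3 and 44.1 CPM. Klrg1, an inhibitory receptor of differentiated lymphocytes, was at 162 CPM (5XFAD) and 113 CPM (WT), and Penk, the precursor of the enkephalin opioid peptides, at 58.0 CPM (5XFAD) and 124 CPM (WT). Penk rested on few cells: 8 cells of 5XFAD and 10 of WT had a UMI, and without the top cell of each cluster and library Penk and Tox2 fell under the minimum of 50 CPM in 5XFAD, at 39.6 and 44.7 CPM, while still 5.18 and 5.85 times the highest of the 4 clusters. Tnfrsf4 and Tnfrsf9 were 5.92 and 4.81 times the highest of the 4 clusters in 5XFAD, and 4.91 and 8.24 times in WT.

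Several genes of other kinds were also among the 20. Ttn and Neb, which encode the giant sarcomere proteins titin and nebulin of muscle, were at 71.6 CPM (5XFAD) and 211 CPM (WT) and at 68.2 CPM (5XFAD) and 104 CPM (WT), and at no more than 14.7 CPM (Ttn) and 3.38 CPM (Neb) in the other T lineage clusters. Dgat2, the enzyme of the last step of triglyceride synthesis, was at 58.0 CPM (5XFAD) and 80.6 CPM (WT), although 17 of its 45 WT UMIs came from 1 cell. Tiam1, an activator of the small GTPase Rac, was at 138 CPM (5XFAD) and 131 CPM (WT), and Eea1, a tether of early endosomes, at 356 CPM (5XFAD) and 317 CPM (WT). Hopx, a homeodomain protein without DNA binding, was at 1622 CPM (5XFAD) and 656 CPM (WT), and Tent5a, a poly(A) polymerase, at 1229.5 CPM (5XFAD) and 974 CPM (WT). Cd83 and Cd81 were low in the other T lineage clusters but not in B cells of clusters 0 to 5, which had 615 and 712 CPM of Cd83, above the 452 and 353 CPM of cluster 8. Tox2 and Dst, a transcription factor and a linker of the cytoskeleton, complete the 20.

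Few of the genes present in all 4 other clusters were low in cluster 8. This count required a level in each of the 4, while the count of higher genes required it only in cluster 8. The 2 counts therefore cannot be compared. Of 1487 genes with at least 50 CPM in each of the 4 clusters in both libraries, 4 (0.269%) were at least 2-fold lower in cluster 8 than in each of them. They were Nkg7, Bcl2, Pde3b and Stk26. Nkg7, a protein of cytotoxic granules, was at 18.8 CPM (5XFAD) and 7.16 CPM (WT), against at least 89.3 and 106 CPM in the 4 clusters. Bcl2, the anti-apoptotic protein, was at 27.3 CPM (5XFAD) and 69.9 CPM (WT), against at least 139 and 209.8. Tcf7, the transcription factor TCF-1 of naive and memory T cells, came next at 47.7 CPM (5XFAD) and 133 CPM (WT), against at least 145 and 217 in the 4 clusters. Selplg (the selectin ligand PSGL-1), Gch1 (the first enzyme of tetrahydrobiopterin synthesis), Snhg12, Prdx6 (a peroxiredoxin) and Rasgrp2 complete the 10 lowest. Selplg was at 211 CPM (5XFAD) and 156 CPM (WT), against at least 335 and 305 CPM.

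The spread between the cells of cluster 8 differed by gene, and Areg and Hopx were among the 15 genes with the highest variance over mean. On cells thinned to 3000 UMIs the variance of each gene was divided by its mean (the Fano factor, near 1 where only counting error acts). Over 3541 genes seen in at least 10 cells of each library the median was 1.14 in 5XFAD and 1.13 in WT. Among the 15 genes with the largest value in the library where it was smaller were Areg, at 9.14 in 5XFAD and 6.79 in WT, and Hopx, at 12.1 and 5.82. Tnfrsf4 was at 5.93 and 5.43, Cd83 at 5.89 and 5.46, and Ikzf2 at 5.06 and 4.84. The others were Malat1, H2afz, Lmna, Crip1, Tmsb4x, Odc1, Rgs2, Rel, Rrad and Vim. For a gene that varies between cells this factor also rises with its level, so the rank reflects abundance as well as variation. Malat1, first by rank, had a mean of 133 UMIs per thinned 5XFAD cell, and Areg 3.07. Lmna (lamin A/C) and Vim (vimentin) are structural genes, Rel is an NF-kB subunit that Treg cells need, and Rgs2 dampens G protein signals.

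The 2 colonic Treg programmes were followed through Ikzf2. Ikzf2 had a UMI in 88 of 133 and 81 of 114 cells, and Gata3 in 68 and 56. The split into cells with and without an Ikzf2 UMI was chosen after the data were seen, and a cell without a UMI may still express the gene. Median depth was lower in cells with Ikzf2 (4133 in 5XFAD, 4417 in WT) than in those without (4419 and 4952). Of 2479 genes with at least 50 CPM in cells with Ikzf2, 57 (2.3%) were at least 2-fold higher there in both libraries. Of 2407 genes with at least 50 CPM in cells without, 18 (0.748%) were at least 2-fold lower in cells with Ikzf2. Ikzf2, which defines the split, itself meets the rule of the higher genes. Cells with Ikzf2 held 374040 UMIs against 212352 in 5XFAD, and 393612 against 164695 in WT. The floor for low counts therefore differed between the sets, and the higher and lower counts cannot be compared.

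Gata3 and the interleukin 33 receptor went with Ikzf2. Gata3 was at 649.7 CPM in cells with and 122 CPM in cells without an Ikzf2 UMI in 5XFAD, a log2 ratio of 2.41 (1.82 to 3.05). In WT it was at 625 and 91.1 CPM, a log2 ratio of 2.78 (2.03 to 3.64). After thinning to 3000 UMIs a Gata3 UMI was found in 59.7% (47.5 to 71.1) of cells with and 26% (14.6 to 40.3) of cells without Ikzf2 in 5XFAD, and in 57.6% (44.8 to 69.7) and 22.2% (10.1 to 39.2) in WT. Il1rl1 was at 484 against 89.5 CPM in 5XFAD and at 511 against 0 CPM in WT, where 36 of 81 cells with Ikzf2 and 0 of 33 cells without had a UMI, which by the floor of 3 counts allows a share of cells with a UMI of up to 9.09%. Klrg1 had UMIs in 38 of 88 against 6 of 45 cells in 5XFAD, and in 25 of 81 against 0 of 33 cells in WT.

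Areg and 3 receptors of the tumour necrosis factor family, Tnfrsf9, Tnfrsf4 and Tnfrsf18, were also higher in cells with Ikzf2. Areg was at 1323 against 367 CPM in 5XFAD, 1.85 (1.502 to 2.21) on the log2 scale, and at 861 against 309.7 in WT, 1.48 (1.05 to 1.93). Tnfrsf9 had log2 ratios of 1.54 (1.19 to 1.89) and 1.43 (0.98 to 1.90), Tnfrsf4 of 1.23 (1.003 to 1.46) and 1.30 (0.99 to 1.63), and Tnfrsf18 of 1.05 (0.71 to 1.40) and 1.18 (0.72 to 1.68). Cd27, of the same family, had -0.86 (-1.25 to -0.46) and -0.09 (-0.54 to 0.38). Pdcd1, the inhibitory receptor PD-1, had 1.35 and 1.17, and Id2, an inhibitor of E proteins, 0.96 and 1.60. Besides Penk, Trat1, Gas2l3, Swap70, Trf, Ccl5, Epas1, Kif23, Zdhhc23, Ero1l and Bcl2l1, Cd83 completes the 15 with the largest smaller ratio, with 2.10 (1.56 to 2.69) and 1.59 (0.97 to 2.27); all but Cd83 of these 12 had at most 69 UMIs in a library.

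Il10 lay on the other side. It was at 217 CPM in 5XFAD cells with Ikzf2 and 725 CPM in those without, a log2 ratio of -1.74 (-2.15 to -1.35), and at 252 and 474 CPM in WT, -0.91 (-1.36 to -0.47). Il10 UMIs were found in 16 of 88 cells with and 28 of 45 cells without Ikzf2 in 5XFAD, and in 22 of 81 and 14 of 33 cells in WT. After thinning the shares were 15.3% (7.88 to 25.7) and 56.0% (41.3 to 70.0) in 5XFAD, and 21.2% (12.1 to 33.0) and 33.3% (18.6 to 51.0) in WT, where the intervals overlap. Maf, the factor c-Maf that drives Il10, had ratios of -0.45 (-0.68 to -0.23) and -0.40 (-0.63 to -0.17), and Ctla4 of -0.56 (-0.72 to -0.40) and -0.32 (-0.54 to -0.09). Lymphoid homing and exit receptors were lower in cells with Ikzf2 as well: Ccr7 had -1.27 (-1.72 to -0.83) and -1.58 (-2.14 to -1.03), and S1pr1 -1.42 (-2.25 to -0.62) and -1.34 (-2.43 to -0.27). The transcription factors Foxp1 and Klf3 and the membrane proteins Tmem176a and Tmem176b were also among the 15 lowest, with St8sia1, Zbtb11, Emp1, Ugcg, Mrpl58, Ctdsp2, Frat2, Mcm6 and Trib2. Foxp3 itself did not differ beyond counting error between the 2 sets, at 374 and 344 CPM in 5XFAD and 239 and 213 CPM in WT, with log2 ratios of 0.12 (-0.30 to 0.55) and 0.17 (-0.41 to 0.77).

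The other 14 genes of the tissue Helios and GATA3 list summed to 5743 CPM with and 2091 CPM without an Ikzf2 UMI in 5XFAD, 1.46 (1.31 to 1.61) on the log2 scale, and to 4870.3 and 2192 CPM in WT, 1.15 (0.99 to 1.32). The 12 genes of the colonic c-Maf list had ratios of -0.62 (-0.72 to -0.51) and -0.32 (-0.44 to -0.19). The TNF receptor list had 0.95 (0.82 to 1.09) and 0.90 (0.73 to 1.08), but its 9 genes other than Tnfrsf4, Tnfrsf9 and Tnfrsf18 had -0.03 (-0.30 to 0.25) and 0.06 (-0.22 to 0.36). The lists share members, such as Tnfrsf9 or Il10, and were drawn up with earlier results of these data known, so the sums describe the split and are no separate evidence for it.

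**Figure D2:**
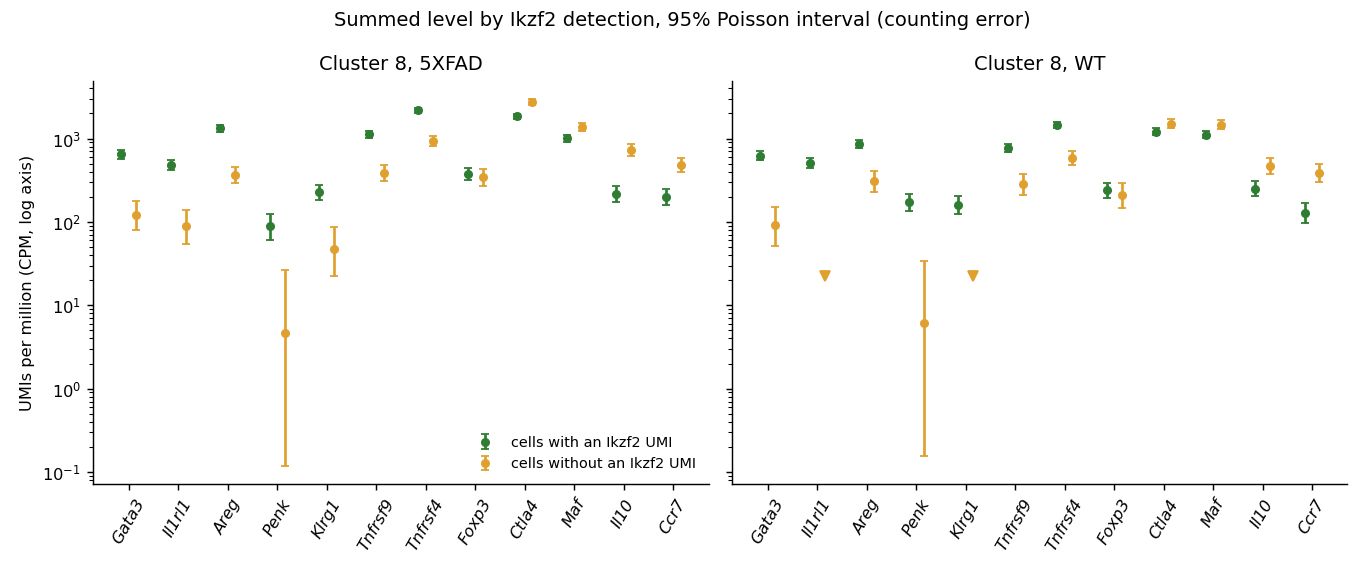
Points give the summed level in CPM (log axis) of 12 genes in cluster 8 cells with (green) and without (orange) an Ikzf2 UMI, in 5XFAD (left) and WT (right); bars are 95% Poisson intervals, and triangles mark the upper limit where no UMI was found. Gata3, Il1rl1, Areg, Penk, Klrg1, Tnfrsf9 and Tnfrsf4 lie higher with Ikzf2 in both libraries, Il10, Maf and Ccr7 lie lower, and the Foxp3 bars of the 2 sets overlap in both.

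Promoter windows are shown for Areg and Il1rl1, which this split sets apart, and for Foxp3, which defines the cells and did not differ beyond counting error between the sets. They are the 250 bases before the start of Areg, of both listed starts of Il1rl1 and of the second listed start of Foxp3, from RefSeq (GRCm38.p6), 5′ to 3′ on the plus strand. Capitals mark matches on either strand to 3 motifs: AGATAA, a form of the site bound by GATA factors, TGANTCA, the AP-1 site, and TGACGTCA, the cyclic AMP response element.
Areg chr5:91139349-91139598: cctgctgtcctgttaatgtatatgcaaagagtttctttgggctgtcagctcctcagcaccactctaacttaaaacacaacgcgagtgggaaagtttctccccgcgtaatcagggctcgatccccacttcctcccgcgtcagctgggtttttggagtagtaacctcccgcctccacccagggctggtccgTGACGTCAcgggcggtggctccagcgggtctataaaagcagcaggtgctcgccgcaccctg
Il1rl1 chr1:40429320-40429569: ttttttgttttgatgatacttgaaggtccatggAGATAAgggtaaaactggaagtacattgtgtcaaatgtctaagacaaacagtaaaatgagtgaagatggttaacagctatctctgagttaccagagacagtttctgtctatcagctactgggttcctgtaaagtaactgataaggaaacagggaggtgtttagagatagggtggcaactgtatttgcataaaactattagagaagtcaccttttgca
Il1rl1 chr1:40439379-40439628: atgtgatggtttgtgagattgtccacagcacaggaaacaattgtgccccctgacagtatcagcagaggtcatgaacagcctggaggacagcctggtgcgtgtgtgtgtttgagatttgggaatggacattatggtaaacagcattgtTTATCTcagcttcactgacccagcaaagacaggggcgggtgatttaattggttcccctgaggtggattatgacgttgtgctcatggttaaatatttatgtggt
Foxp3 chrX:7580233-7580482: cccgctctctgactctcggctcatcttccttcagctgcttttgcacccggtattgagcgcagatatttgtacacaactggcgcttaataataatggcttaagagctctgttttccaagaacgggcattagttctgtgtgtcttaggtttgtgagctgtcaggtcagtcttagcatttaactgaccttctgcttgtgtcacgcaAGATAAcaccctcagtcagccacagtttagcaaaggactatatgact
Areg holds 1 match to TGACGTCA, and both Il1rl1 windows and this Foxp3 window hold 1 match each to AGATAA. Neither the window at the first listed start of Foxp3 nor that of Gata3 holds any of the 3 motifs. Over all 32851 promoter windows of this length, 9.99% hold AGATAA, 6.75% TGANTCA and 1.55% TGACGTCA. A match describes the letters and is not a site of binding.

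Between the libraries, most genes of cluster 8 were close. Of the 3243 genes that reached 50 UMIs in the 2 libraries together, 46 (1.42%) were at least 2-fold higher and 83 (2.56%) at least 2-fold lower in 5XFAD. Ratios whose interval lay wholly above no change numbered 378 (11.7%), those wholly below 400 (12.3%), and the median ratio of all 3243 was -0.02 on the log2 scale. Genes with more UMIs have narrower intervals, and the shares over all genes were not matched for UMIs to the gene lists below. The deposited SCT table, a corrected version of the same cells, put 35 of 3288 genes higher and 121 lower. For many genes the ratio in clusters 10, 11, 13 and 14 summed is given beside that of cluster 8. Those clusters come from the same mice and preparations and are not independent of cluster 8. The higher and lower genes named were ranked by the interval bound closer to 0, so that well-counted genes lead.

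Hopx led the higher genes. It was at 1622 CPM (5XFAD) and 656 CPM (WT), a log2 ratio of 1.31 (1.13 to 1.48), beside 1.14 (0.89 to 1.40) in the 4 clusters summed. A Hopx UMI was found in 78.7% (70.4 to 85.6) of the thinned 5XFAD cells and 55.9% (45.7 to 65.7) of the thinned WT cells (unthinned 86.5% and 63.2%), and in 11.4% (10.1 to 12.7) and 8.15% (7.10 to 9.30) of thinned B cells. Tigit, an inhibitory receptor carried by activated Treg cells, was at 81.9 CPM (5XFAD) and 26.9 CPM (WT), 1.61 (0.75 to 2.55), beside 1.76 (0.95 to 2.64). Samsn1, an adaptor that dampens antigen receptor signals, had 0.94 (0.79 to 1.10) beside 0.75 (0.63 to 0.86), and Atp5md, a subunit of ATP synthase, 1.18 (0.92 to 1.43) beside 0.94 (0.81 to 1.08). For all 4 genes both intervals lay above 0.

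Others had a smaller or opposite ratio in the 4 clusters summed. Klf2 (GRCm38 chromosome 8, 72319033 to 72321656), the factor that drives S1pr1 and exit from tissue, was at 544 CPM (5XFAD) and 253 CPM (WT), 1.11 (0.82 to 1.40), beside -0.28 (-0.42 to -0.13). It had UMIs in 77 of 133 and 55 of 114 cells, or 52.5% (43.2 to 61.6) and 36.3% (27.0 to 46.4) of thinned cells, and S1pr1 had a ratio of 0.74 (0.10 to 1.41). Klf2 is also abundant in B cells, where a UMI was found in 77.2% and 76.8% of unthinned cells, and the ratio without the cells that hold at least 2 B cell marker UMIs was 1.01. Prr7, a transmembrane adaptor, was at 189 CPM (5XFAD) and 68.1 CPM (WT), 1.48 (0.93 to 2.05), beside 0.39 (0.18 to 0.60). Mrps7, a mitochondrial ribosomal protein, was at 71.6 CPM (5XFAD) and 19.7 CPM (WT), 1.86 (0.88 to 2.97), beside -0.03 (-0.47 to 0.41), with 42 and 11 UMIs. The differences between cluster 8 and the 4 clusters were not tested. Nmt1 (the N-myristoyltransferase), Polr2l (an RNA polymerase subunit), Sap18 (a corepressor subunit) and Zcchc9 had ratios of 1.57, 1.64, 1.17 and 1.39, beside 0.84, 1.06, 0.74 and 0.46.

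Among the lower genes, single cells carried the largest ratios. Gzma, a granzyme of cytotoxic cells, had 0 UMIs in 133 cells of 5XFAD and 74 in WT, at least 25.9-fold lower against the floor of 3 counts, but 57 of the 74 lay in 1 cell, and without it the bound is 5.95-fold. Jchain, the joining chain of secreted antibodies, was at 17.1 CPM (5XFAD) and 167 CPM (WT), -3.29 (-4.40 to -2.35), but 71 of the 93 WT UMIs came from 1 cell and the ratio without the top cells was -1.36. Neither is a Treg gene, and the WT library held more B cell, plasma cell and natural killer marker UMIs in cluster 8; the part of such cells in these 2 ratios was not tested beyond leaving out single cells.

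Transcription factors and RNA-handling proteins were among the rest. Tcf7 was at 47.7 CPM (5XFAD) and 133 CPM (WT), -1.47 (-2.16 to -0.83), beside -0.42 (-0.60 to -0.24) in the 4 clusters summed, with UMIs in 17 of 133 and 35 of 114 cells. Myb, a transcription factor of lymphocyte survival and effector Treg cells, was at 25.6 CPM (5XFAD) and 84.2 CPM (WT), -1.72 (-2.66 to -0.85), beside -0.63 (-1.03 to -0.24). Ttn, 1 of the genes that mark cluster 8, was at 71.6 CPM (5XFAD) and 211 CPM (WT), -1.56 (-2.11 to -1.04), and at -1.29 without the top cells, 1 of which held 34 of 118 WT UMIs. Hnrnpul1, an RNA-binding protein, had -1.38 (-2.08 to -0.72) beside 0.08 (-0.25 to 0.41). Lars2, the mitochondrial leucyl-tRNA synthetase, was at 822 CPM (5XFAD) and 1709 CPM (WT), -1.06 (-1.22 to -0.90), beside -0.98 (-1.06 to -0.91). Ddx17 (an RNA helicase), Baz1b (chromatin remodelling), Smg1 (nonsense-mediated decay) and Utrn (utrophin) had ratios of -1.51, -1.45, -1.26 and -1.09, beside -0.60, -0.54, -0.75 and -0.57. Hspa1b, an inducible HSP70 chaperone, had -1.68 (-2.42 to -0.98) from 8 and 18 cells with a UMI; its near-identical neighbour Hspa1a had -2.09 (-3.02 to -1.26), and reads may be split between the pair.

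**Figure D3:**
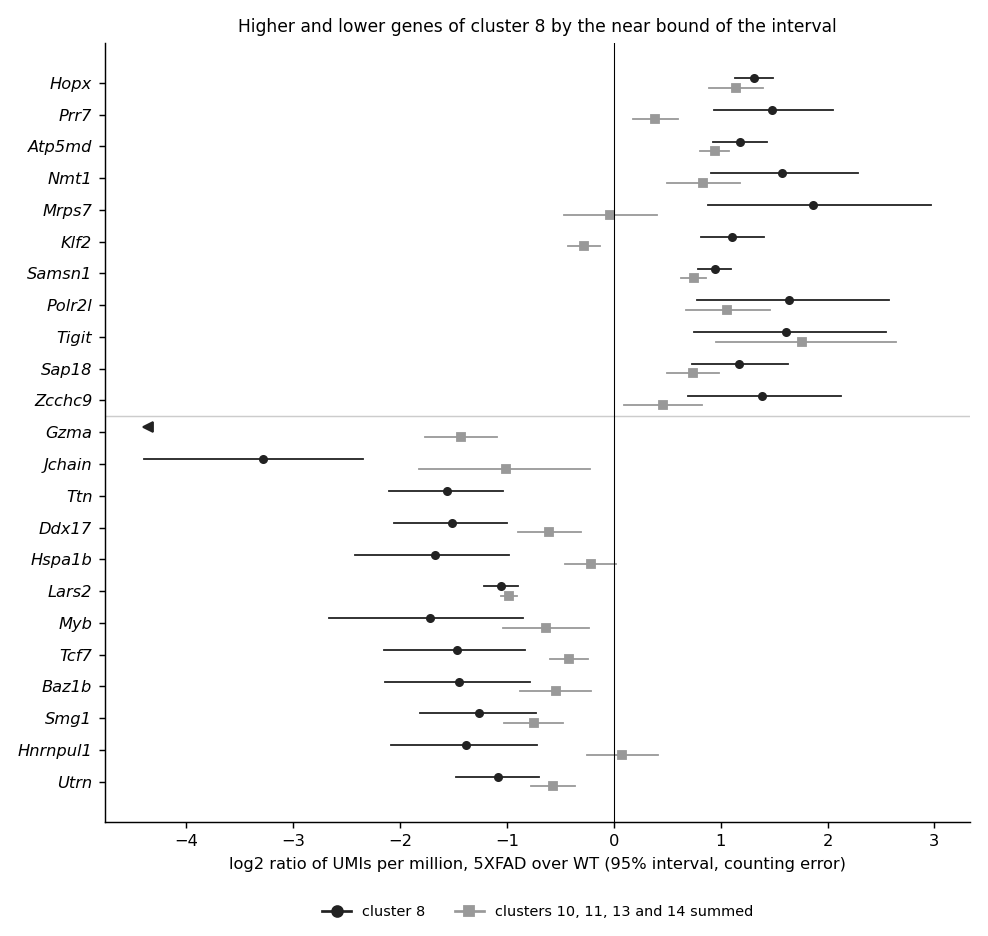
Points give the log2 ratio of CPM, 5XFAD over WT, of 11 of the higher and the 12 lower genes in cluster 8 (black circles) and in clusters 10, 11, 13 and 14 summed (grey squares, shown at 50 UMIs or more), with 95% intervals of counting error; the black triangle for Gzma marks the interval's upper bound, as 5XFAD had no UMI. Hopx, Tigit and Lars2 lie together in both, while Klf2, Mrps7, Prr7 and Hnrnpul1 lie apart.

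The core Treg genes were higher in the 5XFAD cells in most cases, and most by less than 2-fold. Of 16 measured genes of the 18-gene Treg core list, 12 had a ratio above no change and 4 below, with a median log2 ratio of 0.34 beside -0.02 over all genes, of which 47.7% were above no change. The interval lay above no change for 9 (all genes 11.7%, not matched for UMIs) and below for 1. Il10 was among the 9, at 0.34 (0.05 to 0.63), but its ratio was 0.20 with the top cells left out. Foxp3 had 213 UMIs in 92 of 133 cells in 5XFAD and 129 UMIs in 61 of 114 cells in WT, or 363 and 231 CPM, a log2 ratio of 0.65 (0.33 to 0.98). Ctla4 had 0.74 (0.60 to 0.87), Tnfrsf4 0.54 (0.40 to 0.68), Tnfrsf18 0.49 (0.27 to 0.71) and Tnfrsf9 0.47 (0.27 to 0.67). The share of thinned cells with a Tnfrsf4 UMI was 86.9% (79.6 to 92.3) in 5XFAD and 64.7% (54.6 to 73.9) in WT (unthinned 91.7% and 74.6%). For Tnfrsf9 it was 73.8% (65.0 to 81.3) and 50% (39.9 to 60.1) (unthinned 76.7% and 57.9%). In thinned B cells the shares were 0.43% (0.206 to 0.789) and 0.57% (0.312 to 0.955) for Tnfrsf4 and 0.473% (0.236 to 0.844) and 0.326% (0.141 to 0.641) for Tnfrsf9.

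The higher genes were not all of the list. Ikzf4, which encodes Eos, a partner of Foxp3 in repression, had 1.23 (0.33 to 2.20) on 37 and 15 UMIs, and Tigit passed 2-fold as well. Icos, the inducible costimulator, had 0.35 (0.17 to 0.53). Ikzf2, Il2ra, Izumo1r and Lrrc32 had ratios of 0.14 (-0.02 to 0.31), -0.07 (-0.43 to 0.29), -0.05 (-0.44 to 0.35) and 0.17 (-0.54 to 0.88), all with intervals that hold 0. Capg, an actin-capping protein, and Itgae, the integrin chain CD103, had 0.21 (-0.12 to 0.53) and -0.29 (-0.92 to 0.33). Nrp1, a semaphorin receptor of thymic Treg cells, had -0.90 (-1.82 to -0.02) on 18 and 32 UMIs. Gpr83 had 4 and 2 UMIs and Entpd1 (CD39) 12 and 4, below the minimum of 50. In the 4 other clusters summed, 10 of 11 measured genes of the list were above no change, with a median of 0.15: Ctla4 had 0.87 (0.68 to 1.07), Tnfrsf18 0.51 (0.30 to 0.72), Tnfrsf9 1.03 (0.65 to 1.42) and Tnfrsf4 0.10 (-0.20 to 0.41).

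The Foxp3, Ctla4 and Tnfrsf4 ratios of 5XFAD over WT lay above 0 both in cells with and in cells without an Ikzf2 UMI. Foxp3 had 0.65 (0.26 to 1.04) in cells with and 0.69 (0.09 to 1.32) in cells without an Ikzf2 UMI. Ctla4 had 0.61 (0.44 to 0.78) and 0.85 (0.64 to 1.07), Tnfrsf4 0.60 (0.44 to 0.75) and 0.67 (0.31 to 1.04), and Klf2 1.02 (0.67 to 1.37) and 1.33 (0.78 to 1.92). Il10, at 0.34 (0.05 to 0.63) over all cluster 8 cells, had -0.22 (-0.66 to 0.22) with Ikzf2, 217 and 252 CPM, and 0.61 (0.21 to 1.03) without, 725 and 474 CPM. In 5XFAD, 42 of the 235 Il10 UMIs lay in 1 cell, and leaving out the top cells lowered the ratio over all cells to 0.20. The part of that cell in the Il10 ratios of the 2 sets was not tested. Hopx had 1.502 (1.30 to 1.71) with and 0.84 (0.47 to 1.22) without Ikzf2. The differences between the 2 sets in these ratios were not tested.

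The tissue Helios and GATA3 list was mixed between the libraries. Most measured genes of the colonic c-Maf list were higher in 5XFAD, in cluster 8 and in the 4 other clusters summed. Of 12 measured genes of the tissue Helios and GATA3 list (15 genes) 5 were above and 7 below no change, with a median of -0.05; Areg had 0.48 (0.30 to 0.67) and Klrg1 0.52 (0.05 to 1.005), while Gata3 had -0.03 (-0.28 to 0.22) and Il1rl1 -0.08 (-0.37 to 0.21). The transcription factors Rora, Irf4, Batf and Nfil3 had -0.17 (-0.33 to -0.01), -0.44 (-1.03 to 0.15), 0.02 (-0.44 to 0.47) and -0.23 (-0.68 to 0.21). Only 6 of the 12 genes of the colonic c-Maf list were measured, 5 above and 1 below no change, with a median of 0.34 and the interval above no change for 4 (all genes 11.7%): Ctla4, Icos and Il10 are also counted in the core list, and Gzmb, a granzyme that some Treg cells use to kill target cells, had 1.72 (1.25 to 2.21), at 283 CPM (5XFAD) and 86.0 CPM (WT), in 22 of 133 and 11 of 114 cells, with 63 of 166 UMIs in 1 cell of 5XFAD. Maf had -0.10 (-0.25 to 0.06) and Ccr6, a chemokine receptor, 0.34 (-0.22 to 0.90). Il1r1, Il23r, Cxcr3, Havcr2 and Lag3 had 10 and 4, 9 and 7, 25 and 19, 30 and 17, and 23 and 20 UMIs in 5XFAD and WT. Ccr8, a chemokine receptor of tissue Treg cells below the minimum of 50 UMIs, had 22 UMIs in 18 cells of 5XFAD and 4 UMIs in 4 cells of WT. Pparg had no UMI in either library, and Il9r had 8 and 7. Of the colonic c-Maf list, 7 of 8 measured genes were above no change in the 4 other clusters summed, with a median of 0.24. Over all genes in cluster 8, 47.7% were above.

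**Figure D4:**
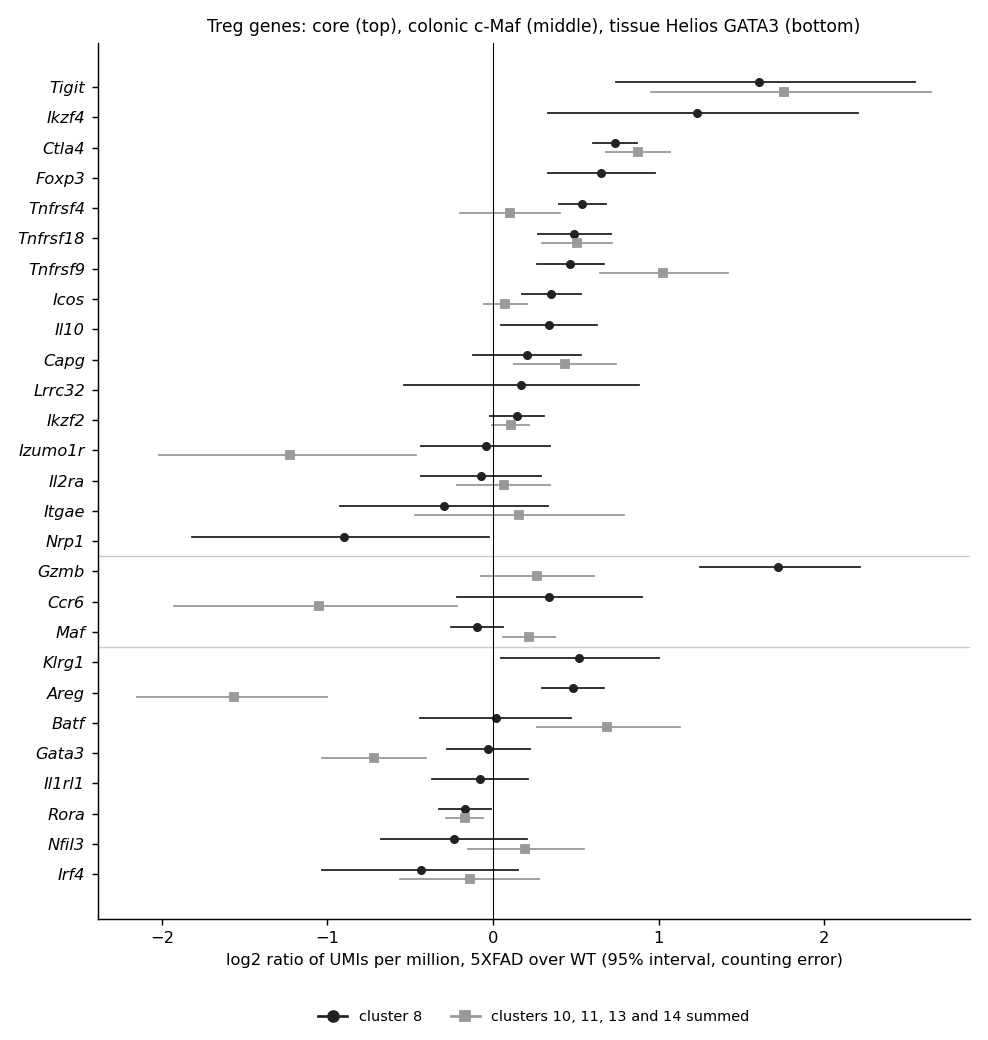
Points give the log2 ratio of CPM, 5XFAD over WT, of the measured genes of the core (top), colonic c-Maf (middle) and tissue Helios and GATA3 (bottom) lists in cluster 8 (black) and in clusters 10, 11, 13 and 14 summed (grey, at 50 UMIs or more), with 95% intervals of counting error; a gene in several lists is drawn once. Foxp3, Ctla4, Tnfrsf4, Tnfrsf18 and Tnfrsf9 lie above 0 in cluster 8, Gata3 and Il1rl1 near 0, and Areg lies above 0 in cluster 8 and below 0 in the 4 clusters.

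Receptors, suppressive mediators and homing genes were mixed. Of 8 measured TNF receptor genes 6 were above and 2 below no change (median 0.17). Of 11 suppressive mediators 8 were above and 3 below (0.17), and among these Penk had -1.09 (-1.73 to -0.48) on 34 and 69 UMIs. Of 14 costimulatory and inhibitory receptors 6 were above and 8 below (-0.03), with Pdcd1 at 0.65 (0.20 to 1.10) and Cd5, a brake on antigen receptor signals, at -0.63 (-0.95 to -0.30). Of 16 cytokine receptors 9 were above and 7 below (0.04), and the interval lay above no change for 2 of them, a share near the 11.7% of all genes, Ifngr1 at 0.47 (0.33 to 0.61) and Il7r at 0.29 (0.05 to 0.52). The 22 trafficking genes were split 11 to 11 (-0.01), with Ccr7 at 0.56 (0.21 to 0.91) and the integrin chain Itgal at -0.66 (-1.18 to -0.14).

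Of 24 measured genes of the CD3 and T cell receptor list 8 were above and 16 below no change (all genes 47.7% above), with a median of -0.14; the interval lay above for 2 (all genes 11.7%) and below for 7 (all genes 12.3%). Prkcq, the kinase PKC-theta, was at 32.4 CPM (5XFAD) and 86.0 CPM (WT), -1.41 (-2.26 to -0.61), and Ptprc, the phosphatase CD45, at 1238 CPM (5XFAD) and 1703 CPM (WT), -0.46 (-0.60 to -0.32). Rhoh, a GTPase of T cell signalling, had -0.52 (-0.84 to -0.21). In the 4 other clusters summed 12 of 28 genes of the list were above no change, with a median of -0.06. Of 29 transcription factors of the T lineage 12 were above and 17 below (-0.07). The naive and resting list was divided, with 5 of 8 above (median 0.30): Klf2, Ccr7 and S1pr1 were higher, while Tcf7, Bcl2 at -1.36 (-2.29 to -0.48) and Satb1, a chromatin organiser, at -0.59 (-0.93 to -0.26) were lower.

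Of 44 nuclear genes of the respiratory chain and ATP synthase 34 were above and 10 below no change (all genes 47.7% above), with a median of 0.24, and the interval lay above for 17 (all genes 11.7%) and below for 1 (all genes 12.3%). Cox6c had 0.64 (0.37 to 0.90), Atp5k 0.94 (0.47 to 1.43) and Atp5j2 0.72 (0.36 to 1.08). In the 4 other clusters summed 41 of 44 were above, with a median of 0.38. The 35 immediate early and dissociation genes were split 17 to 18 (-0.02), with Hsph1 at -1.22 (-1.94 to -0.54). Of 21 NF-kB genes 11 were above (0.01): Nfkbia, the inhibitor of NF-kB, had 0.63 (0.47 to 0.80) and Bcl2a1d 0.61 (0.25 to 0.97), while Nfkb1 had -0.43 (-0.67 to -0.20) and Rel -0.28 (-0.44 to -0.12). Of 11 interferon response genes 6 were above (0.06), with Socs1 at 1.05 (0.45 to 1.67), Isg15 at 0.71 (0.06 to 1.39) and Parp14 at -1.32 (-2.07 to -0.61). Of 7 proliferation genes 4 were above (0.27), with the histone variant H2afz at 0.54 (0.43 to 0.65), Cenpa at 0.47 (0.08 to 0.87) and Hmgb2 at 0.27 (0.02 to 0.52). Of 15 genes of glycolysis and lipid metabolism 7 were above (-0.07), with Aldoa at 0.57 (0.23 to 0.90). Apoe, in the last list, had 63 of its 90 5XFAD UMIs in 1 cell, and a ratio of 1.90 with and 0.60 without the top cells. Only 6 of 24 effector cytokine and chemokine genes were measured, 3 above and 3 below, with Cd40lg at 0.83 (0.15 to 1.53) and Tnfsf8 at 0.28 (0.05 to 0.50). Il17a, Il17f and Il22 had no UMI in 5XFAD, and 2, 1 and 0 in WT.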

How the data were processed

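Live colon leukocytes of 5XFAD and WT mice, 1 pooled library each, were processed with Cell Ranger 6.0.1 and mm10, per the submitters' processing notes. The deposited main table gives natural log values, ln(1 + UMIs per 10000), and a second deposited table natural log values of SCT-corrected counts. Per cell, the deposited metadata give a UMI count, a gene count, a mitochondrial percent and a cluster number; the library called AD there was taken as 5XFAD. For cell filters and clustering, settings were not given in these sources. Whole UMIs were recovered by undoing the log: 11758401 of 11758401 nonzero values were whole within 1e-06. Cluster 8 held 586392 UMIs in 5XFAD and 558307 in WT, with medians of 1578 and 1803.5 genes and 4.15% and 4.23% mitochondrial UMIs per cell. The most genes in any cell were 2498 for 5XFAD and 2697 for WT; 9 cluster 8 cells of WT lay above 2498. The libraries share 3 barcodes, 0 of them in cluster 8.

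UMIs were summed per cluster and library and scaled to CPM. Ratios carry exact conditional binomial, levels Poisson and shares Clopper-Pearson intervals (95%). Ratios and lists use genes with 50 UMIs or more in total, and Gzma's 0 was set to 3 counts. Genes named between libraries also needed 50 CPM where they were higher and 20% of their highest cluster's level. Antigen receptor segments, immunoglobulin constant, ribosomal protein, mitochondrial, sex-linked, Gm-numbered and Rik genes were never named by rank. The members of the 3 Treg lists, up to 4 of each other list and the 12 higher and 12 lower genes by rank are named, except a few genes that are not reported here. Thinning used seed 1. The members and the 18 lists were chosen with earlier results of these data known, and the Ikzf2 split and its alternatives after the data were seen. Coordinates come from GENCODE on GRCm38. The ratio step was tested on simulated Poisson counts per library. Those counts had no single cells, so the test does not cover UMIs gathered in few cells, as seen here for several genes. Tools were Python 3.11.15, numpy 2.4.6, scipy 1.17.1, pandas 2.3.3 and matplotlib 3.10.9.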

Additional observations from a re-analysis of the deposited data

Results flagged for a closer look

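Genes named in the report were looked up in each of clusters 10, 11, 13 and 14, and 7 genes had a ratio of 5XFAD over WT on the other side of no change there, with both intervals clear of 0 and 1 of the 2 ratios at least 2-fold. With 1 library per genotype the differences between clusters were not tested. Areg had -1.63 (-2.41 to -0.91) in cluster 10, 22 UMIs in 13 of 119 cells of 5XFAD and 59 UMIs in 11 of 107 cells of WT, against 0.48 (0.30 to 0.67) in cluster 8. Of the 59 WT UMIs in cluster 10, 18 lay in 1 cell. Klf2 had -0.65 (-0.95 to -0.34) in cluster 11 and -1.84 (-2.68 to -1.06) in cluster 13, the latter on 20 and 46 UMIs, against 1.11 (0.82 to 1.40) in cluster 8. In cluster 10 Klf2 went the way of cluster 8, at 425 CPM (5XFAD) and 319 CPM (WT), with 132 of 301 5XFAD UMIs in 1 cell. In cluster 14 it was at 697 CPM (5XFAD) and 797 CPM (WT). Hnrnpul1 had 0.67 (0.03 to 1.34) in cluster 11 against -1.38 (-2.08 to -0.72) in cluster 8, while in cluster 10 it was lower in 5XFAD, at 73.5 and 103 CPM (WT).

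The other genes encode granzymes and heat shock proteins. Gzmb had -0.65 (-1.15 to -0.16) in cluster 10 against 1.72 (1.25 to 2.21) in cluster 8. In cluster 11 Gzmb went the way of cluster 8, at 156 CPM (5XFAD) and 58.8 CPM (WT), with 39 of 103 5XFAD UMIs in 1 cell. Gzma had no UMI in WT and 104 UMIs in 5XFAD in cluster 11, 99 of them in 1 cell, which gives 4.79 on the log2 scale against the floor of 3 counts, while in cluster 8 it had 0 in 5XFAD and 74 in WT. Hspa1a had 0.38 (0.02 to 0.73) in cluster 11, with 94 of 176 5XFAD UMIs in 1 cell, and Hspa1b 0.39 (0.02 to 0.76), against -2.09 (-3.02 to -1.26) and -1.68 (-2.42 to -0.98) in cluster 8. Both were lower in 5XFAD in cluster 14, at 9.92 and 189 CPM (WT) for Hspa1a and 14.9 and 154 CPM (WT) for Hspa1b. In cluster 10 Hspa1a was at 94.7 CPM (5XFAD) and 278 CPM (WT), with 133 of 170 WT UMIs in 1 cell.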

How the results depend on the processing

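No paired analysis was possible because each genotype is 1 library and the labels carry no replicate numbers. Counts of genes moved with the minimum and the fold. With a minimum of 20 UMIs, 167 genes were at least 2-fold higher and 313 lower in 5XFAD, with 200 UMIs 8 and 6, and with no minimum beyond 1 UMI 688 and 1365; at 1.5-fold they were 264 and 341. Genes 2-fold above each other T lineage cluster numbered 101 at a minimum of 20 CPM, 19 at 200 CPM and 126 against cluster 10 alone. The other scalings, cell filters, per-cell means and the SCT table kept these counts within 1.5 times, though not the higher to lower split of the SCT table given above. The cluster 8 share ratio ran from -0.04 (T lineage) and -0.03 (cells outside clusters 0 to 5) to 0.30 (without B cell marker cells), all with intervals that hold 0. The share of cells with a Foxp3 UMI was 48.1% (5XFAD) and 30.7% (WT) after thinning to 2000 UMIs, and 53.5% unthinned in WT. Of 574 alternative ratios of named genes 568 stayed within the interval; the 6 that left it were of Gzma (-4.07, -2.78 and -2.57, from -4.70), Jchain (-1.19 without B cell marker cells, -1.36 without the top cells) and Apoe (0.60 without the top cells), and no 2-fold ratio changed sign. Foxp3 ran from 0.58 to 0.68, Ctla4 from 0.66 to 0.77 and Klf2 from 0.97 to 1.18. The TNF receptor median was 0.47 at 200 UMIs, on 5 genes. Medians of the Treg core (0.29 to 0.41), oxidative phosphorylation (0.19 to 0.33) and T cell receptor lists (-0.22 to -0.05) kept their sign, while that of proliferation ran from -0.07 to 0.47. For the Ikzf2 split (alternatives added after seeing the data) 33 of 36 ratios stayed within the interval, and the 3 that left it were larger (Il1rl1 4.25 and Tnfrsf9 2.01 thinned, Tnfrsf9 1.96 without the top cells, all WT).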

Other observations

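Gzmb took opposite sides of the Ikzf2 split in the libraries. Its log2 ratio, with over without an Ikzf2 UMI, was -0.61 (-1.06 to -0.15) in 5XFAD and 2.65 (1.01 to 4.98) in WT, on 9 and 13 5XFAD cells and 9 and 2 WT cells with a UMI. In 5XFAD 63 of the 89 UMIs in cells with Ikzf2 lay in 1 cell, and WT cells without Ikzf2 held 3 UMIs. Without the top cell of each set the ratios were -2.00 (-2.72 to -1.31) and 3.60 (1.01 to 8.95). The difference between the libraries was not tested, and the gene was picked for it after its values were seen.

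Summed over its genes, the NF-kB list was higher in cells with Ikzf2, by 1.02 (0.91 to 1.13) in 5XFAD and 0.38 (0.27 to 0.49) in WT on the log2 scale, and by 0.98 (0.86 to 1.10) and 0.42 (0.30 to 0.54) without Nfkbia, its most abundant member. The naive and resting list had -0.20 (-0.36 to -0.03) and -0.52 (-0.70 to -0.34), and -0.35 (-0.54 to -0.16) and -0.81 (-1.02 to -0.60) without Il7r. The proliferation list had 0.70 (0.57 to 0.84) and 0.47 (0.30 to 0.63), but this rested on H2afz: without it the list had 0.12 (-0.10 to 0.34) in 5XFAD and -0.49 (-0.72 to -0.25) in WT.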
